A study of Mus musculus with 14 samples.

Results

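The genes of sphingolipid and ceramide synthesis were examined in the ileum mucosa of mice with and without the nuclear receptor corepressor NCoR1 in the gut epithelium. They were taken by name and comprised the serine palmitoyltransferase subunits Sptlc1, Sptlc2 and Sptlc3, the ceramide synthases Cers2, Cers4, Cers5 and Cers6, the dihydroceramide desaturases Degs1 and Degs2, and the neutral ceramidase Asah2. All 10 were among the 54532 genes of the count table. RNA sequencing covered 7 WT and 7 IKO mice, with 1 library per mouse. All were males that carried NCoR1 flox/flox alleles and ate a high-fat diet (HFD, 60% of kcal from fat) for 15 weeks. The sources differ on their age at the start, with 7 to 8 weeks in one place and 9 weeks, with chow before the HFD, in another. The IKO mice also carried Cre recombinase under the villin promoter, which is active in intestinal epithelial cells (IECs), so the gene was deleted there and not in the other cells of the scraped mucosa. In such bulk RNA, fewer cells of a type and less RNA per cell cannot be told apart.

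Sphingolipids are built on a long-chain base made from serine and palmitoyl-CoA. Serine palmitoyltransferase (SPT) joins them in the committed step, the product is reduced to sphinganine, ceramide synthases attach a fatty acid whose length depends on the isozyme, and a desaturase turns dihydroceramide into ceramide. In the small intestine, ceramide feeds the sphingomyelin and glycosphingolipids of the brush border, while ceramidases and sphingomyelinases on the luminal side digest sphingolipids from food.

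The promoters of the genes that the results turn on are shown first. Sptlc2 and Cers4 had the largest positive and negative log2 fold changes of the 9 members tested, and Asah2 had the highest level per gene length. Each window runs 5′ to 3′ on the gene's strand from 250 bases before to 50 bases after a RefSeq transcript start (build GRCm38.p6), with motif matches in capitals. The windows lie at chr12:87388306-87388605 on the minus strand for Sptlc2, at chr8:4493155-4493454 on the plus strand for Cers4, and at chr19:32103091-32103390 on the minus strand for Asah2.

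Sptlc2: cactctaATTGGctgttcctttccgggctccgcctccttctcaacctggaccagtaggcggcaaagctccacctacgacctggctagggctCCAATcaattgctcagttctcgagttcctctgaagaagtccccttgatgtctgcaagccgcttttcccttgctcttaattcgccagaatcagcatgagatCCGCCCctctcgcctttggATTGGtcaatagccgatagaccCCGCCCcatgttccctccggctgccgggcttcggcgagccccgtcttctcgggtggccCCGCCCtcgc
Cers4: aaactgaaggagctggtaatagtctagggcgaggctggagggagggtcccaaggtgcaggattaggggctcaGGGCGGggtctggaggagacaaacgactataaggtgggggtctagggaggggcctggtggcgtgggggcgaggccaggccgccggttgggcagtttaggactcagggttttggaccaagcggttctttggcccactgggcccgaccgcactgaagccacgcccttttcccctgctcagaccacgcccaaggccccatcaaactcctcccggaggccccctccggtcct
Asah2: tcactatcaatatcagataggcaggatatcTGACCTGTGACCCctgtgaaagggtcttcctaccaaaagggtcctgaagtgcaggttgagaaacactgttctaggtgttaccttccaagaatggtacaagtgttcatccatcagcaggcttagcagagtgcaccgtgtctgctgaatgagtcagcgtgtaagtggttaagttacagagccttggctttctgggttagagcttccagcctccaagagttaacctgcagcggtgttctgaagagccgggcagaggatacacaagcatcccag

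The letters searched on both strands were AGGTCA, the core bound by many nuclear receptors, the same core or GGGTCA repeated directly with 1 base (DR1) or 4 bases (DR4) between the copies, CCAAT, the GC box GGGCGG, the E-box CACGTG and TATAAA. A match on the other strand reads as the reverse complement of these letters. A DR1 match also counts as an AGGTCA match where it holds those letters. In the Sptlc2 window the capitals mark 3 CCAAT and 3 GC box matches, and in the Cers4 window 1 GC box match. Over the 11 windows of the 10 members, 4 held CCAAT and 6 a GC box, against 37.4% and 35.7% of all 32851 windows. In the Asah2 window the capitals mark a single DR1 match with its AGGTCA core, letters found in 1 of the 11 windows and in 0.128% of all windows. AGGTCA was in 2 of the 11 windows and 16.3% of all, the E-box in 3 and 7.15%, TATAAA in 0 and 13.6%, and DR4 in 0 and 0.0426%. This Asah2 start lies outside the interval that the count table gives for the gene. A match is a description of letters, and absence says only that these letters were not in the window.

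The libraries held 14749669 to 21557468 counts. Ncor1, the targeted gene, averaged 134.7 CPM (counts scaled by library size and TMM factor) in the WT mice and 50.6 CPM in the IKO mice, with no overlap (log2 fold change -1.41, SE 0.18, edgeR adjusted p = 0.00051). The summed level of 10 enterocyte markers ranged from 21559 to 57317 CPM in WT and from 42289 to 53214 CPM in IKO, and all 10 were detected. A few libraries stood apart. In IKO 4, 50.3% of counts came from mitochondrially encoded genes, and in WT 3 23.9% did, against 3.49% to 10.3% in the other mice. The summed level of 6 smooth muscle markers was 11086 CPM in WT 4 and at most 63.9 CPM in the other WT mice. In IKO it ran from 4.19 CPM to 828 CPM, with a median of 9.55 CPM. The highest was IKO 1, and the single sums of the other IKO mice are not given here. Differences of the members are given with and without IKO 4, and that of Cers4 also without WT 4.

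Among the members, Cers4 fell in the IKO mice, by 1.24 on the log2 scale. Of the 10 members, 9 passed the filter on low counts and 1 of these 9 was called at an adjusted p under 0.05 (edgeR's quasi-likelihood test, Benjamini-Hochberg adjustment over the 13846 genes tested). Of all genes tested, 8.67% were called, 4.38% as higher and 4.28% as lower in IKO, so the count of members was near the background. The median log2 fold change of the 9 members was -0.02, with 4 positive and 5 negative values, beside a median of -0.09 over all genes. Without adjustment, Sptlc2 and Cers4 had p under 0.05, that is 2 of 9 members beside 30.4% of all genes. Cers4 was also the only member of the 9 whose CPM did not overlap between the genotypes, a pattern seen in 3.10% of all genes.

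**Figure D1:**
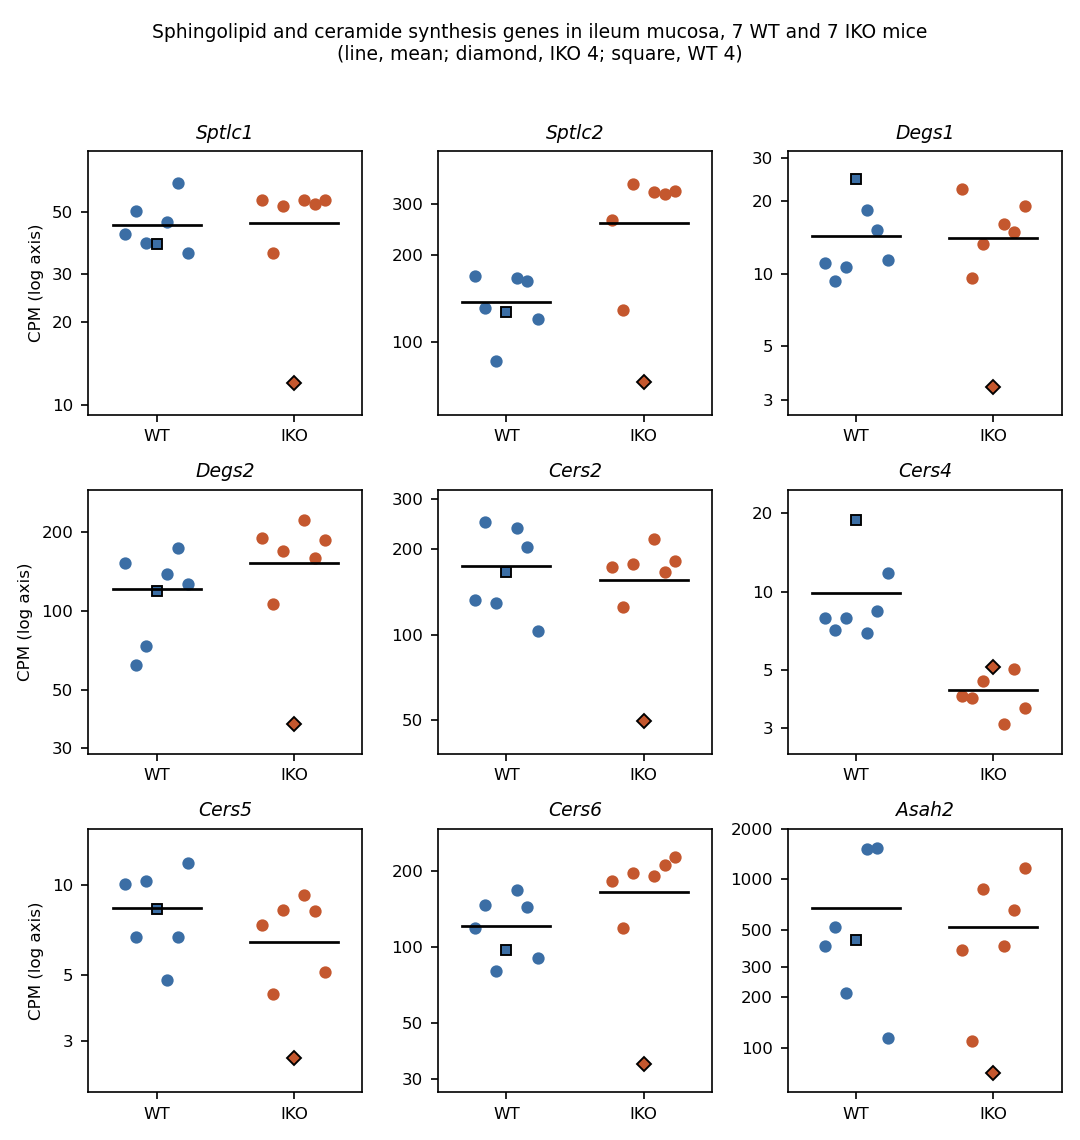
CPM on log axes for the 9 members tested, 1 point per mouse for 7 WT and 7 IKO mice, with lines at the means, a diamond for IKO 4 and a square for WT 4. All IKO points of Cers4 lie below all WT points, 5 IKO points of Sptlc2 and of Cers6 lie above all WT points, and IKO 4 is the lowest point in the other 8 panels.

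IKO 4 had the lowest CPM of all 14 mice in 8 of the 9 members, and in 17.6% of all genes tested. Its Sptlc1 level was 0.234 times the mean of the other 6 IKO mice, and its Cers6 level 0.184 times. For Cers4 it was instead the highest IKO mouse, at 1.28 times that mean. Leaving IKO 4 out raised the members called from 1 to 2, Sptlc2 being added, while the share of all genes called fell from 8.67% to 5.83%. The high mitochondrial share moved with these low values in the same library, and its part in them was not tested.

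Sptlc2 encodes the catalytic subunit of SPT (ENSMUSG00000021036, chr12:87305058-87388355, mm10). Its level in the WT mice had a lowest value of 85.7, a median of 131 and a highest value of 168 CPM. In the IKO mice the lowest was 72.9, the median 324 and the highest 351 CPM. The groups overlapped through IKO 4 and IKO 2 (129 CPM), and the other 5 IKO mice, from 265 to 351 CPM, were above every WT mouse. At least 5 of 7 IKO mice were above every WT mouse in 8.24% of all genes tested, and in 2 of the 9 members, Sptlc2 and Cers6. The means were 137 ± 30.4 CPM in WT and 258 ± 112 CPM in IKO (SD, n = 7 each), a 1.88-fold difference with a 95% interval from 1.20 to 2.94. With a log2 fold change of 0.91 (SE 0.30), it missed the threshold in edgeR's quasi-likelihood test (adjusted p = 0.0694). It was called by DESeq2, the tool the authors used (0.94, adjusted p = 0.0283, 13.8% of all genes called). Without IKO 4 it passed, at 2.11-fold (interval 1.5 to 2.97, log2 fold change 1.08, SE 0.23, edgeR adjusted p = 0.0170). It also passed without WT 3 and IKO 4 (0.99, edgeR adjusted p = 0.0270, 4.65% of all genes called), and it did not when WT 4 was left out as well (0.95, edgeR adjusted p = 0.0530).

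Sptlc1, the subunit that pairs with Sptlc2 in the enzyme (ENSMUSG00000021468, chr13:53332748-53377397), was close to equal in the genotypes. It ranged from 35.7 to 64.1 CPM with a median of 41.6 in WT, and from 12.0 to 55.4 CPM with a median of 53.7 in IKO. The log2 fold change was 0.03 (SE 0.27, edgeR adjusted p = 0.958), and the 95% interval of the fold, 0.689 to 1.51, did not exclude a moderate difference. Without IKO 4, the log2 fold change was 0.20 (SE 0.16, edgeR adjusted p = 0.435). Sptlc3, an alternative catalytic subunit with another choice of acyl-CoA (ENSMUSG00000039092, chr2:139493913-139637674), had 0 counts in all 14 libraries. That allows up to 3 counts, or 0.106 to 0.328 CPM depending on the library, for counting error only.

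Counts of Sptlc2 and Sptlc1 within a library do not depend on how libraries are scaled. The ratio of Sptlc2 to Sptlc1 counts was 3.09 ± 0.662 in WT (SD, n = 7, range 2.21 to 4.05) and 5.59 ± 1.03 in IKO (SD, n = 7, range 3.62 to 6.63). Here 6 of the 7 IKO mice were above the highest WT mouse, and the exception was IKO 2. IKO 4, the lowest mouse for both genes, had a ratio of 6.06, within the range of the other IKO mice. This ratio was chosen after its values were seen and was not tested.

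**Figure D2:**
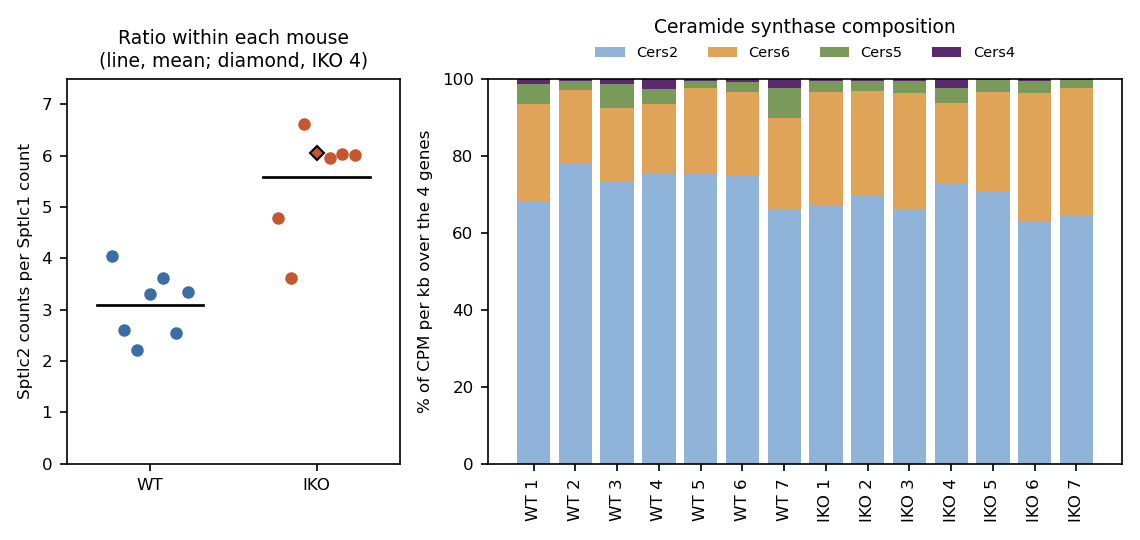
Left, Sptlc2 counts per Sptlc1 count in each of 7 WT and 7 IKO mice, with lines at the means of 3.09 and 5.59 and a diamond for IKO 4; right, the percent of summed CPM per kb that Cers2, Cers6, Cers5 and Cers4 took in each mouse. The ratio in 6 IKO mice is above the WT maximum of 4.05, and Cers2 is the largest block in every mouse.

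Cers4, a ceramide synthase for long-chain acyl groups (ENSMUSG00000008206, chr8:4493026-4531680), was the member called. Its WT values were 6.96 CPM at the lowest, 7.88 at the median and 19.0 at the highest, the last in WT 4. Its IKO values were 3.10 CPM at the lowest, 3.98 at the median and 5.14 at the highest. Every IKO mouse was therefore below every WT mouse, which holds for 1.26% of all genes tested. The means were 9.87 ± 4.32 and 4.18 ± 0.764 CPM (SD, n = 7 each), 0.423 of the WT level in IKO with a 95% interval from 0.294 to 0.608. The difference of -1.24 (SE 0.25) passed edgeR's quasi-likelihood test with an adjusted p of 0.00934. It rested on low counts, from 47 to 399 per library, and on 1929 counts in all.

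The Cers4 difference did not depend on the libraries that stood apart. Without WT 4, the log2 fold change was -1.0 (SE 0.19, edgeR adjusted p = 0.0114, 5.35% of all genes called), and without IKO 4 it was -1.29 (SE 0.26, edgeR adjusted p = 0.0131). Without WT 3, WT 4 and IKO 4 together, it was -1.07 (SE 0.21, edgeR adjusted p = 0.0191), and 3.08% of all genes were called. Some marker lists were also lower in IKO. All 4 stem cell markers had negative log2 fold changes with 0 called, and their summed level was 57.7 to 179 CPM in WT and 33.2 to 108 CPM in IKO, overlapping. All 4 tuft cell markers were negative with 1 called, Avil (log2 fold change -1.17, edgeR adjusted p = 0.0413), at sums of 21.9 to 50.6 CPM in WT and 9.07 to 26.0 CPM in IKO. All 5 smooth muscle markers tested and all 5 fibroblast markers were negative with 0 called. The fibroblast sum was 6.28 to 339 CPM in WT and 8.15 to 42.3 CPM in IKO. Cers4 was highest in WT 4 (19.0 CPM) and WT 7 (11.8 CPM). These mice also had the 2 highest fibroblast sums (339 and 61.4 CPM) and the 2 highest tuft sums (34.9 and 50.6 CPM). The 2 highest stem sums were instead in WT 3 and WT 6. Without WT 7, the Cers4 log2 fold change was -1.21 (SE 0.27, edgeR adjusted p = 0.0230), and 4.32% of all genes were called. The part of these cell types in the Cers4 difference was not tested.

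Cers6, which makes ceramides with a palmitoyl chain (ENSMUSG00000027035, chr2:68861441-69114282), showed a pattern like that of Sptlc2 at a smaller size. It ranged from 80.8 to 169 CPM with a median of 119.5 in WT, and from 34.7 to 227 CPM with a median of 191 in IKO. IKO 4 was the lowest of all mice, IKO 2 (119 CPM) was within the WT range, and the other 5 IKO mice were above every WT mouse. The log2 fold change was 0.46 (SE 0.32, edgeR adjusted p = 0.335), with a 95% interval of the fold from 0.863 to 2.18. Leaving out IKO 4 gave 0.64 (SE 0.20) and still no call (edgeR adjusted p = 0.0722).

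Cers2, the synthase for very long acyl chains (ENSMUSG00000015714, chr3:95314791-95323599), did not pass. Its level was 174 ± 56.8 CPM in WT, from 103 to 249, and 156 ± 54.0 CPM in IKO, from 49.4 to 216 (SD, n = 7 each). The fold had a 95% interval from 0.590 to 1.35 (log2 fold change -0.16, SE 0.28, edgeR adjusted p = 0.726). Without IKO 4, the log2 fold change was 0.00 (SE 0.22, edgeR adjusted p = 0.993). Setdb1 lies on the opposite strand over part of Cers2 and had 9.97% as many counts, and since strandedness of the counting is not given in the sources used here, shared reads there cannot be told apart. Cers5, another palmitoyl-preferring synthase (ENSMUSG00000023021, chr15:99734881-99772885), had 8.40 ± 2.49 CPM in WT and 6.44 ± 2.45 CPM in IKO (SD, n = 7 each). Its ranges, 4.81 to 11.9 CPM and 2.62 to 9.24 CPM, overlapped over most of their length (log2 fold change -0.38, SE 0.28, edgeR adjusted p = 0.372; without IKO 4 -0.24, SE 0.25, edgeR adjusted p = 0.537).

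Within the family of 4 synthases, levels were set against each other per gene length, as shares of summed CPM per kb. Cers2 took 73.0% ± 4.40 in WT and 67.6% ± 3.47 in IKO, and Cers6 took 21.4% ± 2.73 and 28.6% ± 4.32 (SD, n = 7 each). Cers5 held 4.23% ± 2.32 and 2.98% ± 0.661. Cers4 held the smallest mean share, 1.38% ± 0.757 in WT and 0.733% ± 0.685 in IKO. The IKO share of Cers4 was spread by IKO 4 alone, at 2.26% against at most 0.646% in the other 6 IKO mice. All 4 shares overlapped between the genotypes. The ratio of Cers6 to Cers2 counts was 0.715 ± 0.131 in WT (range 0.584 to 0.903) and 1.03 ± 0.203 in IKO (range 0.701 to 1.27, SD, n = 7 each), with 5 IKO mice above the highest WT mouse. The ratios of Cers4 counts to Cers2, Cers6 and Sptlc1 counts overlapped between the genotypes, with IKO 4 the highest IKO mouse in each. Apart from IKO 4, the ratio to Cers2 still overlapped, at 0.0310 in IKO 2 against 0.0287 in WT 2. Those to Cers6 and Sptlc1 did not, at most 0.0327 and 0.109 (both IKO 2) against at least 0.0413 (WT 5) and 0.132 (WT 6). All these ratios were also chosen after their values were seen and were not tested.

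Degs2, which adds a hydroxyl group to dihydroceramide as well as desaturating it and is known for high levels in the intestine (ENSMUSG00000021263, chr12:108678711-108702315), ranged from 62.2 to 173 CPM with a median of 127 in WT. In IKO it ranged from 37.2 to 222 CPM with a median of 169, and 3 IKO mice were above every WT mouse. The log2 fold change was 0.34 (SE 0.32, edgeR adjusted p = 0.498), and without IKO 4 it was 0.51 (SE 0.24, edgeR adjusted p = 0.178). Degs1, the desaturase found in most tissues (ENSMUSG00000038633, chr1:182275772-182282804), had 14.4 ± 5.52 CPM in WT and 14.1 ± 6.24 CPM in IKO (SD, n = 7 each). Its log2 fold change of -0.02 (SE 0.33, edgeR adjusted p = 0.970) changed sign under several settings and showed no direction, at 0.15 (SE 0.26, edgeR adjusted p = 0.724) without IKO 4. Per gene length, Degs2 made up 89.0% ± 3.64 of the sum of both desaturases in WT and 91.6% ± 1.25 in IKO. Evl lies opposite part of Degs2, with 7.38% as many counts.

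**Figure D3:**
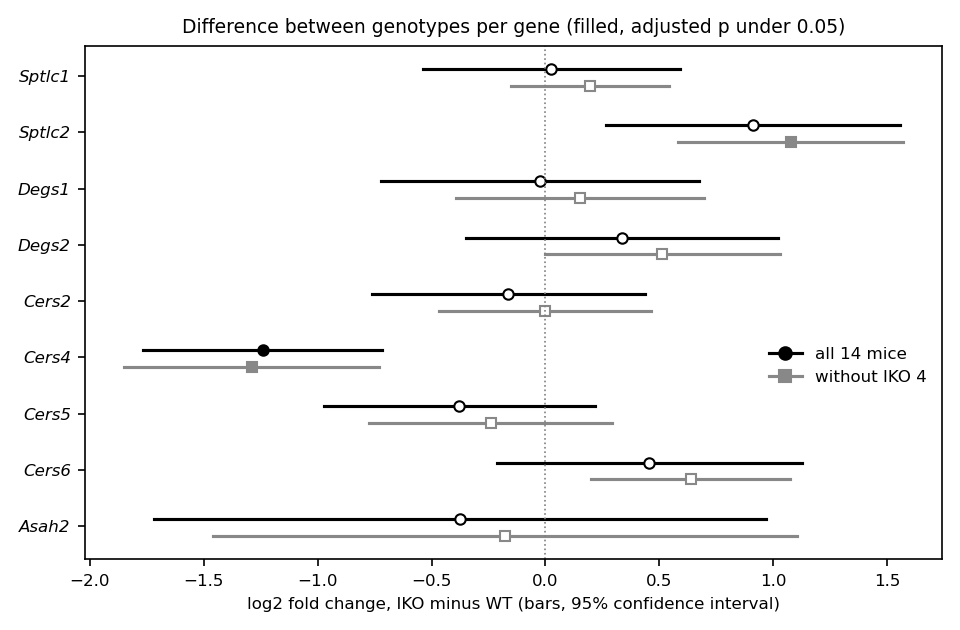
Log2 fold change, IKO minus WT, with 95% confidence intervals for the 9 members, in all 14 mice (circles) and without IKO 4 (squares); filled symbols have an edgeR adjusted p under 0.05. Cers4 is filled in both fits at -1.24 and -1.29, Sptlc2 only without IKO 4 at 1.08, and Asah2 has the widest interval.

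Asah2, the neutral ceramidase of the enterocyte brush border (ENSMUSG00000024887, chr19:31984654-32061469), varied more between mice of the same genotype than any other member. Its WT values were 114 CPM at the lowest, 439 at the median and 1539 at the highest, a 13.5-fold range. Its IKO values were 70.6 CPM at the lowest, 403 at the median and 1167 at the highest, a 16.5-fold range. The groups overlapped over nearly their whole ranges. The log2 fold change was -0.37 (SE 0.63, edgeR adjusted p = 0.720), and the 95% interval of the fold, 0.304 to 1.96, leaves a difference in either direction undetected at this spread. Without IKO 4, it was -0.18 (SE 0.60, edgeR adjusted p = 0.868). The within-group coefficient of variation was 87.8% in WT and 76.8% in IKO, against at most 43.8% in WT and 44.3% in IKO for the other 8 members tested.

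The levels of some other genes are set beside Asah2 mouse by mouse, as a description. Enpp7, the alkaline sphingomyelinase of the brush border, was highest in the WT mice with the highest Asah2, WT 5 (2539 CPM) and WT 6 (2622 CPM), and lowest in WT 7 (226 CPM). In IKO it was highest in IKO 7 (1700 CPM) and IKO 3 (1570 CPM), which were also the highest 2 for Asah2, and lowest in IKO 4 (268 CPM). Sgpl1, the lyase that ends sphingosine 1-phosphate breakdown, had its 2 highest WT levels in the same WT 5 (838 CPM) and WT 6 (967 CPM) and its lowest IKO level in IKO 4 (99.0 CPM). Its highest 2 IKO levels were in IKO 7 (724 CPM) and IKO 1 (652 CPM), and IKO 3, with 559 CPM, was the fourth. Alpi, the intestinal alkaline phosphatase, was highest in WT 2 (1939.8 CPM), above WT 5 (1156 CPM) and WT 6 (1187 CPM). Enpp7 thus shared its 2 highest mice in each genotype with Asah2, Sgpl1 did so in WT only, and Alpi did not in WT. Fabp6, the bile acid binding protein of distal ileum, was at 186 CPM in WT 5 and 192 CPM in WT 6, and from 1060 to 7661 CPM in the other 5 WT mice. In IKO, Fabp6 was lowest in IKO 1 (24.7 CPM), IKO 2 (127 CPM) and IKO 7 (580 CPM), where Asah2 was 380, 109.7 and 1167 CPM, the last being the highest Asah2 level in IKO. The other 4 IKO mice had Fabp6 from 2216 to 6143 CPM. Fabp6 itself ran from 24.7 to 7661 CPM over the 14 mice, and its part in the spread of Asah2 was not tested. Enpp7, Sgpl1, Alpi and Fabp6 were set beside Asah2 after their values were seen.

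**Figure D4:**
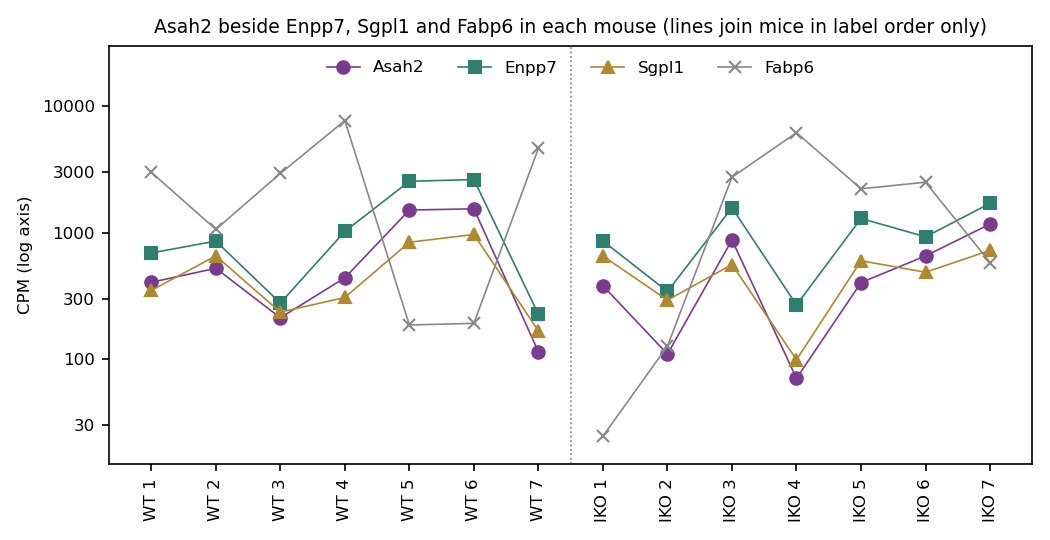
CPM on a log axis of Asah2, Enpp7, Sgpl1 and Fabp6 in each of the 14 mice, where lines only join mice in the order of their labels. Asah2, Enpp7 and Sgpl1 are high together in WT 5 and WT 6, where Fabp6 is at 186 and 192 CPM, and all 3 are lowest among IKO mice in IKO 4.

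On a per-length scale (CPM per kb of the gene length in the deposited table), the WT levels of the members fell in the order Asah2, Cers2, Degs2, Sptlc2, Cers6, Sptlc1, Degs1, Cers5, Cers4 and Sptlc3. Asah2 was at 145 ± 127 CPM per kb, Cers2 at 47.4 ± 15.5 and Degs2 at 46.8 ± 15.6 (SD, n = 7 each), and these 3 neighbours did not differ beyond their spread. Sptlc2 at 16.9 ± 3.75, Cers6 at 13.6 ± 3.74 and Sptlc1 at 12.7 ± 2.75 CPM per kb were also within each other's spread. All genes were measured in the same mice, so this spread between mice does not settle their order within a mouse. Degs1 (5.54 ± 2.13), Cers5 (2.37 ± 0.704) and Cers4 (0.804 ± 0.352) followed as separate steps, with their ranges of mean ± SD apart. In IKO, Degs2 (59.1 ± 24.0) stood above Cers2 (42.4 ± 14.7), within the spread of both. With the longest coding transcript as length, Sptlc1 and Cers6 changed places in WT, at 17.3 and 17.2 CPM per kb.

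Genes around the members in the pathway were taken from a list of 56 symbols, of which 54 were in the table and 48 were tested. Of these 48, 1 rose and 1 fell in edgeR's quasi-likelihood test, 4.17% in all beside 8.67% of all genes. Their median log2 fold change was -0.08, with 20 positive and 28 negative values and 0 genes without overlap between genotypes. Without adjustment, 13 of the 48 had p under 0.05 in edgeR, 5 of them higher and 8 lower in IKO, beside 30.4% of all genes.

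Aldh3a2, the fatty aldehyde dehydrogenase that takes up the aldehyde made by Sgpl1, rose from 243 ± 78.5 CPM in WT to 424 ± 127 CPM in IKO (SD, n = 7 each). All 7 IKO mice were above the WT median of 222 CPM, and the groups overlapped. For such counts against the WT median, here and below, the share over all genes was not computed. The log2 fold change was 0.80 (SE 0.24, edgeR adjusted p = 0.0472). Acer1, an alkaline ceramidase, fell from 23.1 ± 12.2 CPM to 10.8 ± 3.29 CPM (SD, n = 7 each), with all 7 IKO mice below the WT median of 20.2 CPM. Its log2 fold change was -1.09 (SE 0.30, edgeR adjusted p = 0.0386). Both calls stood near the threshold, and of 26 alternative settings Aldh3a2 kept its call in 9 and Acer1 in 10. Leaving out 1 mouse kept the Aldh3a2 call only without WT 5, WT 6 or IKO 6, and that of Acer1 only without WT 1, WT 5, WT 6 or IKO 6. Without IKO 4, WT 3 and WT 4, the values were 0.76 (edgeR adjusted p = 0.139) and -0.97 (edgeR adjusted p = 0.0978).

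Around SPT, 0 of 5 small subunits and regulators were called in edgeR, beside 8.67% of all genes. Of these 5, 1 had an unadjusted p under 0.05, beside 30.4% of all genes. Sptssa, a small subunit that activates SPT, had 85.1 ± 18.7 CPM in WT and 118 ± 20.9 CPM in IKO (SD, n = 7 each), with 6 IKO mice above the WT median (log2 fold change 0.47, SE 0.17, edgeR adjusted p = 0.0858), and DESeq2 did call it (adjusted p = 0.0403). Ormdl3, which inhibits SPT when ceramide is plentiful, was at 116 ± 54.7 and 115 ± 29.2 CPM (SD, n = 7 each) with a log2 fold change of 0.00 (SE 0.29, edgeR adjusted p = 0.997). Kdsr, which reduces the SPT product, had a log2 fold change of -0.31 (SE 0.31, edgeR adjusted p = 0.520). Cers1 and Cers3, the remaining ceramide synthases, had 10 and 9 counts over all 14 libraries and were not tested. Fa2h, which hydroxylates the fatty acid of ceramide, ranged from 0 to 4.45 CPM in WT and from 0.120 to 13.3 CPM in IKO (log2 fold change 1.71, SE 1.01, edgeR adjusted p = 0.258). Single mice decided its size, since the log2 fold change was 0.85 without IKO 6 and 2.75 without WT 1.

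Genes for the use of ceramide and of the glycosphingolipids made from it showed 0 calls in edgeR over 10 genes tested, beside 8.67% of all genes. Of these 10, 1 had an unadjusted p under 0.05, beside 30.4% of all genes. Col4a3bp, the ceramide transfer protein, had 63.9 ± 12.8 CPM in WT and 45.3 ± 18.6 CPM in IKO (SD, n = 7 each; log2 fold change -0.50, SE 0.24, edgeR adjusted p = 0.173). The sphingomyelin synthase Sgms2 had a log2 fold change of 0.34 (SE 0.34, edgeR adjusted p = 0.518), and the related Samd8 had -0.25 (SE 0.39, edgeR adjusted p = 0.692). Ugcg, which starts glycosphingolipid synthesis, was at 279 ± 106 and 297 ± 120.4 CPM (SD, n = 7 each), and the kinase Cerk at 63.3 ± 19.1 and 54.8 ± 6.16 CPM. These differences were within the spread between mice.

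Genes that break sphingolipids down also gave no further calls. Enpp7 averaged 1176 ± 1002 CPM in WT and 994 ± 562 CPM in IKO (SD, n = 7 each; log2 fold change -0.24, SE 0.55, edgeR adjusted p = 0.794). Smpd3, a neutral sphingomyelinase, was at 119 ± 36.6 and 108 ± 38.0 CPM. For glycosphingolipids, 0 of 10 breakdown genes tested were called in edgeR, beside 8.67% of all genes. Of these 10, 1 had an unadjusted p under 0.05, beside 30.4% of all genes. Among those not called were the activator Psap (log2 fold change 0.08, SE 0.21) and the hexosaminidase Hexa (0.11, SE 0.18). Of the remaining ceramidases, Asah1, the lysosomal acid ceramidase, had a log2 fold change of 0.48 (SE 0.27, edgeR adjusted p = 0.240), and Acer3 had -0.21 (SE 0.28, edgeR adjusted p = 0.632).

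Of the 8 genes that make, move or degrade sphingosine 1-phosphate, Aldh3a2 was the only one called, 12.5% beside 8.67% of all genes. Without adjustment, 4 of the 8 had p under 0.05 in edgeR, 2 higher and 2 lower in IKO, beside 30.4% of all genes. Sphk2, a sphingosine kinase, had 72.0 ± 18.2 CPM in WT and 94.8 ± 19.7 CPM in IKO (SD, n = 7 each), and all 7 IKO mice were above the WT median (log2 fold change 0.40, SE 0.18, edgeR adjusted p = 0.154). Sgpl1 had a log2 fold change of -0.04 (SE 0.44, edgeR adjusted p = 0.956). All 4 receptors tested had negative values, from -0.96 to -2.02, all with unadjusted p under 0.05 in edgeR, as had 30.4% of all genes, and 0 called. The values of S1pr1 and S1pr3 moved with the setting, and the other receptors were not followed across settings. With voom sample weights S1pr1 went from -1.81 to -0.08 and S1pr3 from -2.02 to 0.59, and with the replicate block they were at -1.06 and -0.55. Leaving out WT 3 gave -1.23 for S1pr1, leaving out WT 4 gave -1.51 for S1pr3, and leaving out WT 3, WT 4 and IKO 4 gave -1.15 and -0.57. S1pr1 ranged from 0.340 to 15.1 CPM in WT and from 0.589 to 3.07 CPM in IKO, and S1pr3 from 0.157 to 18.3 CPM and from 1.11 to 2.40 CPM. The T cell marker sum was 50.8 to 175 CPM in WT and 35.2 to 97.9 CPM in IKO, the B and plasma cell sum 93.6 to 612 and 83.1 to 422 CPM, and all 4 markers of each list had negative log2 fold changes with 0 called. The endothelial sum was 2.83 to 23.0 CPM in WT and 3.51 to 10.4 CPM in IKO, and S1pr3 was highest in WT 4, the mouse with the highest smooth muscle sum. The part of these cells in the receptor values was not tested.

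**Figure D5:**
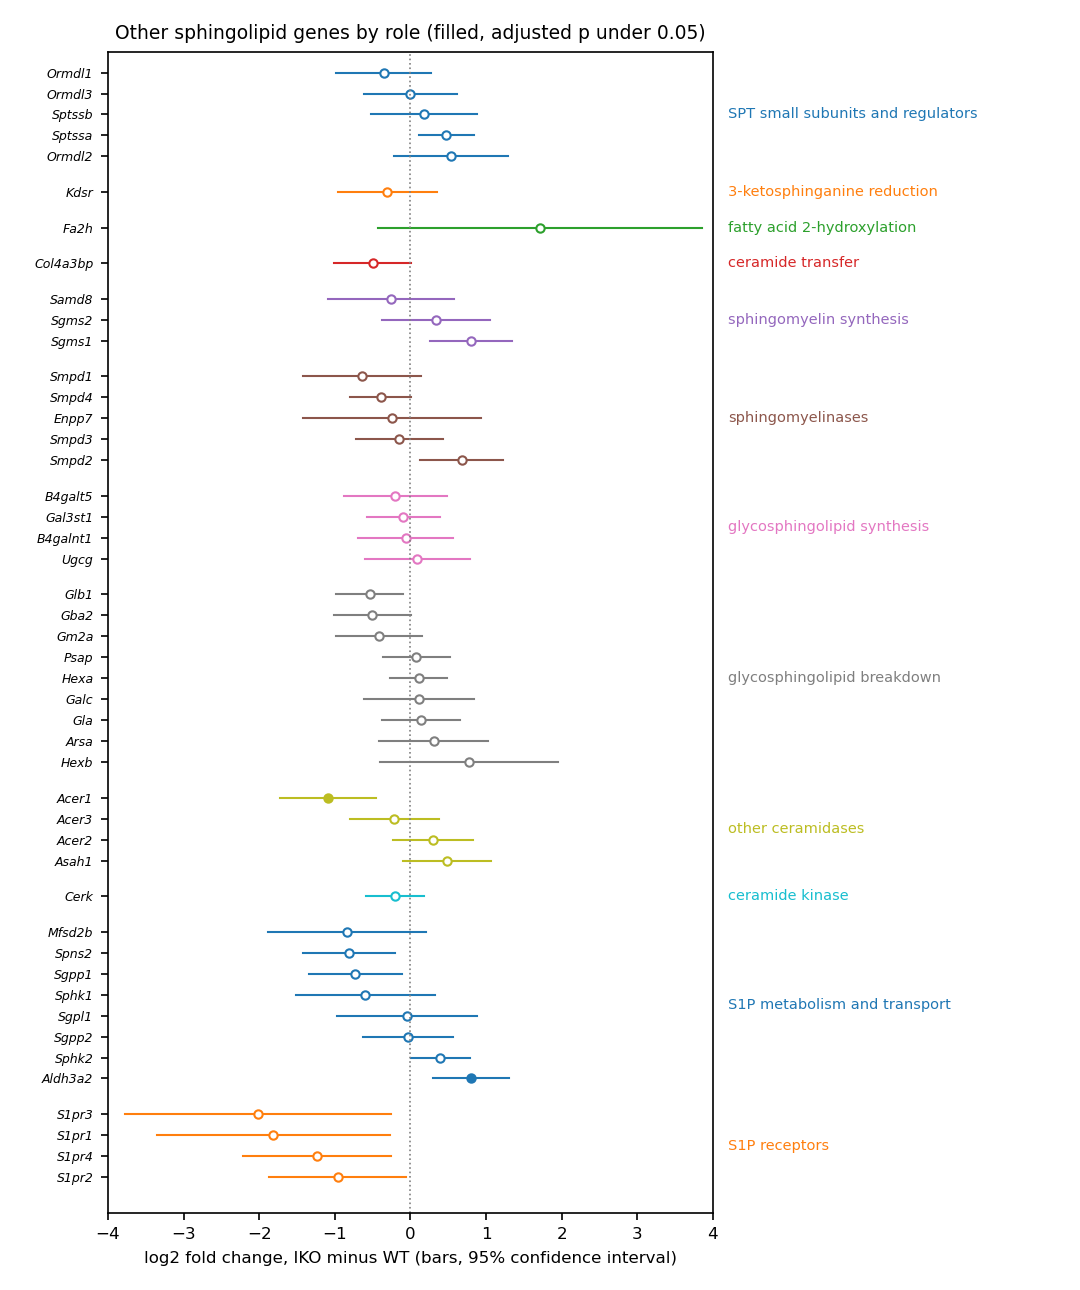
Log2 fold change, IKO minus WT, with 95% confidence intervals for other sphingolipid genes tested, coloured and grouped by role; filled symbols have an edgeR adjusted p under 0.05. Acer1 at -1.09 and Aldh3a2 at 0.80 are the 2 filled symbols, and the 4 sphingosine 1-phosphate (S1P) receptors all lie left of 0 in this fit, where S1pr3 turned to 0.59 with voom weights.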

How the data were processed

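RNA from scraped ileum mucosa of 7 WT and 7 IKO mice was analysed, each group being described as biological replicates, with genotypes taken from the sample titles and KO columns read as IKO. The authors prepared libraries with a NEBNext kit, sequenced them as paired-end reads, and, per the labels, aligned them to mm10 with HISAT2 2.0.5 and counted genes with featureCounts 1.5.0-p3. The authors compared genes with DESeq2 at an adjusted p under 0.05. Strandedness is not given in the sources used here. The counts were deposited as whole numbers and had not been normalized. The deposited FPKM equal the counts per gene length divided by DESeq2-type size factors and 1 constant, as checked on the values, and served as an alternative.

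Genes were filtered with filterByExpr, scaled by TMM and compared with edgeR 4.0.16 (glmQLFit, glmQLFTest) under R 4.3.3. The model held genotype alone, and p-values were adjusted by Benjamini-Hochberg over 13846 genes, at a threshold of 0.05. The SE is the log2 fold change divided by the root of F. Intervals are at 95%. CPM use the library size times the TMM factor. Depth of 14749669 to 21557468 counts sets the precision of low genes such as Cers4, and intervals for counts near 0 cover counting error only. The code was tested on simulated data.

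Alternatives were DESeq2 1.42.0, RLE scaling, scaling without mitochondrially encoded genes, other filters (none, at least 10 counts in every sample), limma 3.58.1 on log2(FPKM + 1) or log2(FPKM + 0.1) for genes above 0.5 FPKM in at least 7 samples or unfiltered, limma-voom with sample weights, a replicate block, and samples left out. The set without WT 3, WT 4 and IKO 4, the other gene length and the ratios within a library were added after seeing the data. Same-numbered samples had correlations of their deviations from -0.305 to 0.232, with 1 pair over 0.1, so the numbers were not used as pairs. Promoter windows came from RefSeq (GRCm38.p6). No protein sequences were used here.

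The members and lists were chosen with earlier results of these data known. All members were named, and of the other sphingolipid genes those called plus at most 2 per role with the highest mean level, except 1 that is not reported here. Exceptions are marked. With Sptlc3 at 0 counts, no permutation test was run on it.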

Additional observations from a re-analysis of the deposited data

Results flagged for a closer look

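In each group of 7, the highest and lowest sample was compared with its nearest neighbour, for 22 measures. In 10 of the 44 groups the gap took more of the group's range than Dixon's 95% critical value for 7 samples, where chance would give about 2.20. Within the IKO mice, IKO 4 was set apart at the low end on the log2 scale for Sptlc1 (gap 0.710 of the range, 12.0 against 35.6 CPM in the next mouse), Cers2 (0.631, 49.4 against 125 CPM), Cers6 (0.656, 34.7 against 119 CPM), Degs2 (0.586, 37.2 against 106 CPM) and Acer1 (0.750, 4.15 against 10.4 CPM). At the high end, IKO 4 was set apart for the Cers4 share of the ceramide synthases (0.825 of the range, 2.26% against 0.646%) and for the share of mitochondrially encoded counts (0.944, 50.3% against 6.10%). Its TMM factor was low (0.795, 0.579 against 0.888).

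Within the WT mice, WT 3 was set apart by its mitochondrially encoded share (0.676 of the range, 23.9% against 10.3%), and WT 4 by the summed smooth muscle markers on the log2 scale (0.665, 11086 against 63.9 CPM). The 5 gene levels and the Cers4 share all come from the same IKO library, so they are not independent of each other, and the part of its mitochondrial share in them was not tested.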

How the results depend on the processing

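Cers4 kept its direction in 26 of 26 alternatives and its call in 25. The call was lost in limma on log2(FPKM + 1) without a filter (-0.39, adjusted p = 0.0787). The filtered limma fit gave the same -0.39 and kept the call (adjusted p = 0.0335), and the unfiltered one tested 29041 genes in place of 12165. The filter asked for more than 0.5 FPKM in at least 7 samples. Cers4 averaged 0.786 FPKM in WT and 0.341 FPKM in IKO, so it passed mainly through the WT mice. The calls in filtered limma therefore add no support of their own. Over all alternatives, the adjusted p of Cers4 ran from 0.000167 to 0.0787. Sptlc2 kept its direction in all 26 (0.77 to 1.08) and was called in 4, namely DESeq2 (0.94, adjusted p = 0.0283), voom with weights (0.96, adjusted p = 0.0103), without IKO 4, and without WT 3 and IKO 4 (0.99, edgeR adjusted p = 0.0270). Its adjusted p ran from 0.0103 to 0.267. Sptssa was called by DESeq2 (0.51) and voom (0.43) only.

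The 1200 genes called became 2445 with DESeq2, 1889 with voom, 508 without a filter, 614 with unfiltered limma, 362 with the replicate block, 648 without WT 3 and IKO 4, and 433 without WT 3, WT 4 and IKO 4. Leaving out 1 mouse gave 515 (without IKO 5) to 1371 (without WT 2). Members called, 1 in the main test, were 2 with DESeq2 (13.8% of all genes called), voom (13.6%) and without WT 3 and IKO 4, 0 with unfiltered limma, and 1 to 2 with 1 mouse left out (2 without IKO 4). Other sphingolipid genes called, 2 in the main test, were 4 with DESeq2 and voom, 0 to 2 with 1 mouse left out, and 0 without a filter, with unfiltered limma, with the block and without WT 3 and IKO 4 or all 3 mice. The cause of these shifts was not tested. The block left Cers4 called (-1.17, edgeR adjusted p = 0.0379) and ended the calls of Acer1 and Aldh3a2. Of calls, 50.6% were higher in IKO, against 68.3% and 69.0% in limma with pseudocounts of 1 and 0.1, where the median of all genes moved by 0.117 and 0.128, and 68.1% without a filter, 73.9% in unfiltered limma, 62.4% with the block and 63.5% without IKO 4. Ncor1 stayed called, at -1.49 to -1.30 with 1 mouse left out.

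Small values changed sign. Degs1 turned to 0.0093 (DESeq2), 6.83e-05 (RLE), 0.0081 (no filter), 0.18 (voom), 0.085 (without WT 3 and IKO 4) and 0.29 (without all 3). Ormdl3 turned to 0.031 (DESeq2), 0.023 (RLE), 0.030 (no filter), 0.13 (limma, pseudocount 1, either filter), 0.14 (pseudocount 0.1), 0.099 (block), 0.23 (voom), 0.024 (without WT 3 and IKO 4) and 0.049 (without all 3). Sptlc1 turned to -0.026 (at least 10 counts), -0.037 (limma, pseudocount 1, either filter), -0.056 (pseudocount 0.1) and -0.073 (block). Enpp7 turned to 0.0359 and 0.0364, and Sgpl1 to 0.0371 and 0.0360, with pseudocounts of 1 (either filter) and 0.1, and Sgpl1 to 0.025 (voom) and 0.014 (without WT 3 and IKO 4). S1pr3 turned to 0.59 with voom, where S1pr1 was at -0.08. With 1 mouse left out, the ranges were -0.035 to 0.20 for Sptlc1, -0.17 to 0.16 for Degs1, -0.14 to 0.19 for Ormdl3, -0.44 to 0.090 for Enpp7, -0.038 to 0.26 for Ugcg, -0.025 to 0.17 for Psap and -0.21 to 0.20 for Sgpl1. With the longest coding transcript as length, Cers2 took 77.9% and 73.3% and Cers6 17.4% and 23.6% of the ceramide synthases in WT and IKO. Depth limits Cers4, Cers5 and Degs1, whose counts fell to 47, 24 and 31 in 1 library.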

Other observations

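Some sphingolipid genes outside the naming rule had unadjusted p under 0.05 in edgeR over all 14 mice without a call, and were picked after their values were seen. Some were called elsewhere, Sgms1 by DESeq2, by voom with weights and without IKO 2, Smpd2 by voom and without WT 2, and Spns2 without WT 7. Sgms1, a sphingomyelin synthase of the Golgi, had 22.2 ± 6.24 CPM in WT and 38.5 ± 13.96 CPM in IKO (SD, n = 7 each; log2 fold change 0.80, SE 0.26, edgeR adjusted p = 0.0599), and 6 of 7 IKO mice were above the WT median. Smpd2, a neutral sphingomyelinase, had 59.7 ± 29.1 and 95.6 ± 16.5 CPM, with all 7 IKO mice above the WT median (log2 fold change 0.68, SE 0.26, edgeR adjusted p = 0.0979). On the lower side, Spns2, which exports sphingosine 1-phosphate, had a log2 fold change of -0.81 (SE 0.28, edgeR adjusted p = 0.0783), Sgpp1, which dephosphorylates it, -0.73 (SE 0.29, edgeR adjusted p = 0.109), and Glb1, the lysosomal beta-galactosidase, -0.54 (SE 0.21, edgeR adjusted p = 0.102). All 7 IKO mice were below the WT median for Sgpp1 and for Glb1, and 6 of 7 for Spns2. How common such patterns are among all genes was not computed.

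Genes of the pathway that were not tested had not passed the filter on low counts. St3gal5, the GM3 ganglioside synthase, had 214 counts and Neu3 145 counts over the 14 libraries, Ugt8a had 2 and S1pr5 had 0. St3gal5 was at most 3.56 CPM in WT, in WT 4, and at most 0.619 CPM in IKO.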
